A study of Mus musculus with 4 samples.

Results

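Solute carriers are membrane proteins that move sugars, amino acids, ions, metals, vitamins, nucleotides and metabolites across membranes, and their genes carry the symbol Slc with a family number and a member number. The genes described here were those whose symbol follows that pattern and that had at least 20 counts in at least 2 of 4 libraries. Of 359 such symbols in the table, 113 had no count in any library and 179 reached the count. From these, 9 genes were left out by name (Slc7a5, Slc3a2, Slc7a1, Slc2a1, Slc16a3, Slc7a11, Slc40a1, Slc11a1 and Slc11a2), as were 3 that lie near G3bp1 on chromosome 11. This left 167 solute carrier genes of the 34745 genes in the table, from 40 families, and they were placed by hand in 12 substrate classes from general knowledge of the families. All 167 were among the 12418 genes tested, and 155 of them reached the count in all 4 libraries. Another 4 reached it only in the KO libraries, among them Slc38a4, Slc6a9 and Slc16a9, and 1, Slc39a2, only in the WT libraries. These genes passed through the genotype where they were high, so their difference partly follows from the rule. At the edge of the rule, Slc9b2 was inside with 10, 20, 14 and 28 counts, and Slc4a3 was outside with 13, 6, 20 and 16 counts (in each case WT 1, WT 2, KO 1 and KO 2).

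The data are RNA sequencing of macrophages kept in culture, with 2 libraries for each genotype, numbered 1 and 2. In the study, the controls (WT) were G3bp1f/f mice, in which loxP sites flank part of G3bp1. KO (G3bp1mac-/-) mice carried the same allele together with Cre under the Lyz2 promoter, which is active in monocytes, macrophages and granulocytes. G3BP1 is the scaffold protein of stress granules, and no treatment of the cells and no age of the mice was given in the labels. Whether libraries came from separate animals was not stated, so p-values measure the spread between these libraries, which may be technical.

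The libraries held 16724241 to 19747909 counts over genes. G3bp1 itself had WT counts of 1691 and 2875 and KO counts of 1307 and 2296. In CPM (counts divided by TMM-scaled library totals), WT against KO was 104 against 70.1 in number 1 and 180 against 117 in number 2. Its log2 fold change was -0.61 (SE 0.40) and did not pass the test (edgeR quasi-likelihood, adjusted p = 0.904), so the groups are named as the labels name them. The study reported efficient loss of G3BP1 in macrophages of KO mice, measured by qRT-PCR and Western blot. Of 12 macrophage markers, 11 passed the filter on low counts, and Cd163 had only 4 to 7 counts in a library. The abundant ones included Lyz2 at 297591 to 383749 counts, Cd68 at 52573 to 57779 and Adgre1 at 5911 to 13316. Stromal markers were higher in KO: the summed level of all 12 was 81.9 and 97.7 CPM in WT against 361 and 326 CPM in KO, none of the 12 was at 0 in all libraries, and 8 of the 11 tested had an unadjusted p under 0.05. The defining neutrophil genes Ly6g and Ngp had at most 1 count in a library, while the summed level of 10 neutrophil genes was 30.0 and 25.7 CPM in WT against 9.23 and 12.0 CPM in KO. Summed levels in WT against KO were 110.3 and 100.3 against 44.2 and 53.2 CPM for mast cell and basophil genes, 22.1 and 23.2 against 12.0 and 11.4 CPM for B cell genes, and 12.1 and 8.41 against 2.04 and 3.10 CPM for erythroid genes. T and NK cell genes had 2.59 and 1.76 against 1.61 and 1.22 CPM, and none passed the filter. Higher in both KO libraries were endothelial genes, at 33.4 and 24.4 against 57.0 and 37.7 CPM, and dendritic genes, at 270 and 384 against 393 and 426 CPM. Vwf and Itgax made up most of these sums, and 1 of 3 and 0 of 4 tested genes had an unadjusted p under 0.05. Of 12 proliferation genes, 10 were higher in both KO libraries, against 20% of all genes tested, while their summed level overlapped (489 and 339 CPM in WT against 383 and 357 CPM in KO), since the most abundant, Pcna, was lower in both KO libraries. The part of these genes in the transporter values was not tested, and in a bulk sample fewer cells of a type and less RNA per cell cannot be told apart.

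Macrophages take up dead cells and microbes and digest them in lysosomes, so that amino acids, peptides, haem, sugars and metals are released from the lysosome and used or exported. Solute carriers of the lysosomal membrane, the plasma membrane and the mitochondrial inner membrane carry much of this traffic. Many are also known to respond to inflammatory stimuli, among them the arginine carrier Slc7a2, which feeds nitric oxide and polyamine synthesis.

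The levels were examined first, in FPKM as deposited, which divides counts by gene length and library total and so can be compared between genes. The most abundant transcript was Slc25a5, the adenine nucleotide translocase that exchanges ADP and ATP across the mitochondrial inner membrane, with 255 and 190.1 FPKM in WT and 187 and 198 FPKM in KO. Slc48a1, which passes haem out of the lysosome after red cells are digested, had 94.5 and 101 FPKM in WT and 119.6 and 128 FPKM in KO. Slc39a1, a zinc importer, had 75.5 and 119.7 FPKM in WT and 98.1 and 127 FPKM in KO. For Slc48a1 both KO libraries were above both WT libraries, and for Slc25a5 and Slc39a1 the genotypes overlapped on this scale.

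Slc31a2, a copper transporter of endosomes, had 37.7 and 149.7 FPKM in WT and 32.4 and 144 FPKM in KO, and Slc15a3, a lysosomal exporter of histidine and small peptides that include bacterial muropeptides, had 68.2 and 105 FPKM in WT and 74.8 and 94.4 FPKM in KO. In both, the libraries numbered 2 were above those numbered 1 in each genotype. By mean FPKM the order was Slc25a5 (207), Slc48a1 (111), Slc39a1 (105), Slc31a2 (91.0) and Slc15a3 (85.6), and among these neighbours only Slc25a5 was above the next transcript in all 4 libraries. These 5 transcripts took 33.1% of the summed FPKM of the 167 genes, and the first 10 took 46.5%. A mean of at least 10 FPKM was reached by 38 genes, 98 lay between 1 and 10 FPKM, and 31 were under 1 FPKM. The gene length behind the deposited FPKM was 0.156 to 2.86 times the summed exon length of GENCODE (median 1.39), so levels of single genes depend on it: with the exon length, 9 of the 10 highest and 14 of the 20 highest stayed in those ranks. Slc15a3 overlaps Tmem132a and Slc48a1 overlaps Hdac7, 2 of 25 cases in which another expressed gene overlaps and counts may be shared.

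**Figure D1:**
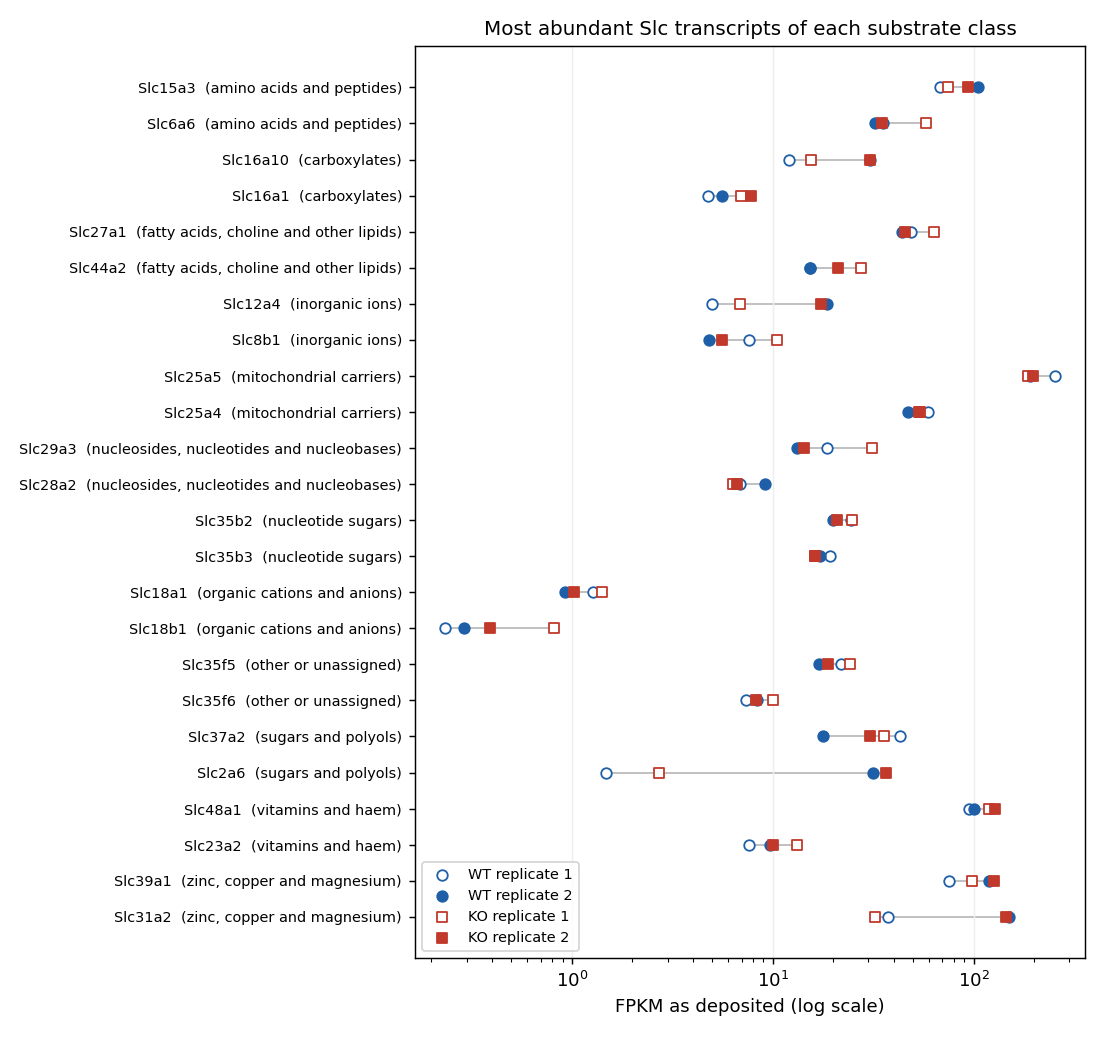
Deposited FPKM (log scale) of the 2 most abundant Slc transcripts of each of 12 substrate classes, with 1 point per library, circles for WT, squares for KO, open symbols for replicate 1 and filled ones for replicate 2, and a line over the range. Slc2a6 spans 1.49 to 36.5 FPKM and splits by replicate number, while Slc25a5 lies between 187 and 255 FPKM in all 4 libraries.

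Mitochondrial carriers of the Slc25 family were the largest class, with 35 genes and 30.9% of the summed FPKM. After Slc25a5, the other adenine nucleotide translocase Slc25a4 had 59.4 and 47.0 FPKM in WT and 53.7 and 54.3 FPKM in KO, the phosphate carrier Slc25a3 had a mean of 52.8 FPKM, and the oxoglutarate carrier Slc25a11 a mean of 45.1 FPKM. Slc25a4 and Slc25a5 are close paralogues, and how the authors counted reads that fit both was not stated. Zinc, copper and magnesium transporters held 22 genes. Beside Slc39a1 and Slc31a2, the class included the zinc exporter Slc30a1 with 19.0 and 15.6 FPKM in WT and 20.8 and 18.2 FPKM in KO, the copper importer Slc31a1 with 12.3 and 27.5 FPKM in WT and 14.8 and 26.1 FPKM in KO, and the zinc and manganese importer Slc39a8 with a mean of only 0.652 FPKM.

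Amino acid and peptide transporters (22 genes, 14.9% of the FPKM) were led by Slc15a3 and by the taurine transporter Slc6a6, which had 35.5 and 32.2 FPKM in WT and 58.2 and 35.1 FPKM in KO. Slc6a8, the creatine transporter, had a mean of 20.7 FPKM. Members with lower levels were the glutamine transporter Slc1a5 (5.09 FPKM), the lysosomal peptide transporter Slc15a4, which is needed for signalling by endosomal Toll-like receptors (5.37 FPKM), and Slc38a9, the lysosomal arginine sensor upstream of mTORC1 (3.53 FPKM). Over the 4 libraries Slc1a5 ranged from 3.54 to 6.42 FPKM, Slc15a4 from 4.61 to 6.50 FPKM and Slc38a9 from 2.81 to 4.55 FPKM, and of these only Slc15a4 was higher in both KO libraries than in both WT libraries.

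In the remaining classes, Slc37a2, a sugar phosphate exchanger of the endoplasmic reticulum that is abundant in macrophages, had 43.1 and 17.8 FPKM in WT and 35.8 and 30.4 FPKM in KO. Slc29a3, a lysosomal nucleoside transporter, had 18.6 and 13.2 FPKM in WT and 31.3 and 14.4 FPKM in KO. Slc27a1, a fatty acid transporter, lay between 44.0 and 63.9 FPKM, the lactate and pyruvate transporter Slc16a1 between 4.74 and 7.77 FPKM, and the vitamin C transporter Slc23a2 between 7.62 and 13.2 FPKM. Of these 5, Slc16a1 and Slc23a2 were higher in both KO libraries than in both WT libraries in FPKM, and for Slc23a2 the genotypes overlapped once TMM factors were used. Organic cation and anion transporters were near the lower end, and the most abundant of their 3 genes, the vesicular monoamine transporter Slc18a1, had a mean of 1.16 FPKM.

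The genotypes were compared next, which asks whether transporter transcripts differ in the cells labelled G3bp1mac-/-. G3bp1 itself was at 65.6% of its mean WT level in CPM there and did not pass the test. In the fit over all genes, with a call at an adjusted p under 0.05 and a fold change over 2, 0 of the 167 genes were called in the edgeR quasi-likelihood test, as were 0% of all genes tested. The lowest adjusted p among the 167 was 0.250. On simulated data with the measured difference between replicate numbers added, this test recovered 0 of 200 genes changed 4-fold. The absence of calls therefore does not show that no transcript differed. A fit with a term for the number is given in the last section. An unadjusted p under 0.05 was found for 11 of the 167, of which 9 were higher and 2 lower in KO, a share of 6.59% against 6.63% of all genes tested. In the DESeq2 Wald test and in edgeR's exact test, 2 of the 167 were called. Slc38a4, which is among the 167 only through its KO counts, was called in each. Over all genes these tests called 0.923% of the 17991 with a count and 1.40% of the 12418 tested, so the share among the transporters was close to the background.

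The direction was uneven. The log2 fold change was above 0 in KO for 122 of the 167 genes (73.1%) against 54.6% of all genes tested, and its median was 0.15 (interquartile range -0.02 to 0.33) against 0.04 over all genes. Both KO libraries were above both WT libraries for 48 of the 167 (28.7%) against 20% of all genes, and both were below for 15 (8.98%) against 16.9%. These counts moved with the scaling. They were 42 and 16 (25.1% and 9.58%) with DESeq2 size factors, where all genes gave 17.4% and 19.0%. With the deposited FPKM they were 66 and 10 (39.5% and 5.99%) against 31.6% and 9.40% of all genes. After a correction for the trend of each library with gene length they were 32 and 28 (19.2% and 16.8%) against 13.5% and 21.1%. The same correction moved the median of all genes to -0.06 and that of the 167 to 0.02.

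By substrate class, the median log2 fold change was 0.31 for amino acids and peptides, where 21 of 22 genes were above 0, 9 (40.9%) were higher in both KO libraries and none was lower in both. All genes tested gave 54.6% above 0, 20% higher in both and 16.9% lower in both. The median was 0.33 for nucleosides, nucleotides and nucleobases (5 of 6 above 0), 0.26 for sugars and polyols (10 of 13), 0.25 for the 10 genes with another or no assigned substrate (8 of 10), 0.23 for carboxylates (5 of 8), 0.22 for vitamins and haem (6 of 8) and 0.20 for inorganic ions, where 19 of 21 were above 0. Of these 21, 10 (47.6%) were higher and 1 (4.76%) was lower in both KO libraries. Lipid and choline transporters had a median of 0.15, with all 6 above 0. The lowest medians were 0.07 for zinc, copper and magnesium, 0.03 for mitochondrial carriers (19 of 35 above 0), 0.02 for nucleotide sugars and 0.00 for organic cations and anions, and these 4 were below 0 with the correction for gene length, to -0.11, -0.11, -0.15 and -0.17. After that correction the amino acid class had a median of 0.13 and inorganic ions one of 0.03. Leaving out a library gave medians on both sides of 0 for sugars and polyols (-0.04 to 0.50), mitochondrial carriers (-0.04 to 0.04), nucleotide sugars (-0.17 to 0.03) and zinc, copper and magnesium (-0.0032 to 0.33), and a range of 0.19 to 0.68 for carboxylates. The low ends came without KO replicate 1 for the first 3 of these classes and without WT replicate 1 for the metals, and the high end for carboxylates came without WT replicate 2. The other classes stayed above 0, with ranges of 0.10 to 0.36 for nucleosides, nucleotides and nucleobases, 0.12 to 0.83 for organic cations and anions, 0.23 to 0.53 for amino acids, 0.22 to 0.38 for lipids, 0.11 to 0.32 for inorganic ions, 0.17 to 0.31 for the unassigned genes and 0.14 to 0.25 for vitamins and haem. Without WT replicate 2 the nucleoside class was at its lowest and the amino acid and organic ion classes were at their highest, without WT replicate 1 inorganic ions and vitamins were at their lowest, and without KO replicate 2 lipids were at their highest. The order of the classes therefore depended on single libraries. Slc16a10 was classed by its family with the carboxylates but carries aromatic amino acids. Counted with the amino acid class it made 21 of 23 above 0 with a median of 0.29, and the 7 remaining carboxylate genes had a median of 0.33.

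**Figure D2:**
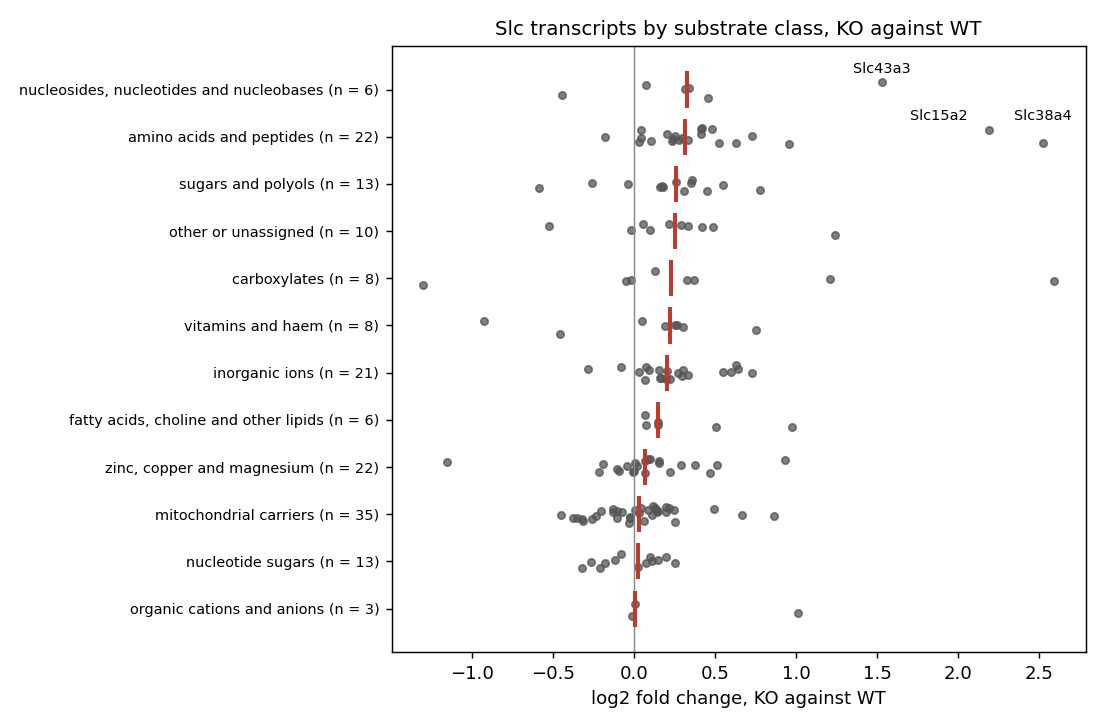
Log2 fold change of KO against WT for each of the 167 Slc genes, by substrate class, with 1 point per gene and a red bar at the class median. Medians run from 0.00 for organic cations and anions to 0.33 for nucleosides, nucleotides and nucleobases, and the labelled transcripts Slc38a4, Slc15a2 and Slc43a3 lie above 1.5.

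Of the 48 transcripts with both KO libraries above both WT libraries, 32 had a mean count of at least 100. They were 23.5% of the 136 members with that count, a lower share than the 28.7% of all 167. Both KO libraries were below both WT libraries for 12 of the 136 (8.82%). All genes with that count gave 16.7% higher and 18.04% lower. The 7 described here were picked by their low p-values. Slc38a4, a neutral amino acid transporter of system A that is imprinted in mouse, had WT counts of 7 and 9 and KO counts of 58 and 53. Both KO libraries were far above both WT libraries, and the libraries of a genotype lay close together. Slc38a4 is among the genes that reached the count only in KO. On the log2 scale KO exceeded WT by 2.53 (SE 0.43, with 1.44 to 3.61 as the 95% confidence interval), and Slc38a4 did not pass the edgeR quasi-likelihood test (adjusted p = 0.250).

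For Slc38a4 the RefSeq start that coincides with the start of the gene in the table lies on GRCm38 chromosome 15, minus strand. The 200 bases before it, chr15:97055957-97056156, are shown because this transcript had the lowest adjusted p of the 167. They held 2 CpG and a GC share of 55.5%, and none of the motifs searched below.
Slc38a4: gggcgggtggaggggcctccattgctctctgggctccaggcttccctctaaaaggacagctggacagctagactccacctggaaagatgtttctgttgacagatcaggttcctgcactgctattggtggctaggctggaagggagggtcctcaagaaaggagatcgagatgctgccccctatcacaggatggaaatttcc

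Slc15a2, a peptide transporter of the plasma membrane that also takes up bacterial dipeptides, had WT counts of 26 and 5 and KO counts of 102 and 66. The genotypes did not overlap, but WT replicate 2 was at 0.211 times the level of WT replicate 1, and the log2 fold change was 2.19 (SE 0.76, adjusted p = 0.657, edgeR quasi-likelihood). Leaving out WT replicate 1 raised this to 3.78, while leaving out WT replicate 2 lowered it to 1.42. Slc43a3, which carries purine nucleobases and fatty acids, had WT counts of 54 and 99 and KO counts of 190 and 342, and its log2 fold change was 1.53 (SE 0.45, adjusted p = 0.511, edgeR quasi-likelihood). Slc35e2, a member of the nucleotide sugar transporter family with no established substrate, had WT counts of 42 and 33 and KO counts of 74 and 139, a log2 fold change of 1.24. In all 3, every KO library was above every WT library.

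Among transcripts of moderate level, Slc41a3, a magnesium transporter of mitochondria, had WT counts of 180 and 141 and KO counts of 368 and 361, and its log2 fold change was 0.93 (SE 0.25, adjusted p = 0.447, edgeR quasi-likelihood). Slc20a2, a sodium and phosphate cotransporter, had WT counts of 164 and 161 and KO counts of 307 and 297, and it overlaps Gm17491 and Smim19. Slc9a8, a sodium and proton exchanger of the Golgi, had WT counts of 372 and 291 and KO counts of 572 and 624. Their log2 fold changes were 0.64 and 0.60, with SEs of 0.24 and 0.23. The summed levels of the stromal, endothelial and dendritic markers were also higher in both KO libraries, by the values given above. Their part in the differences of these 7 transcripts was not tested.

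**Figure D3:**
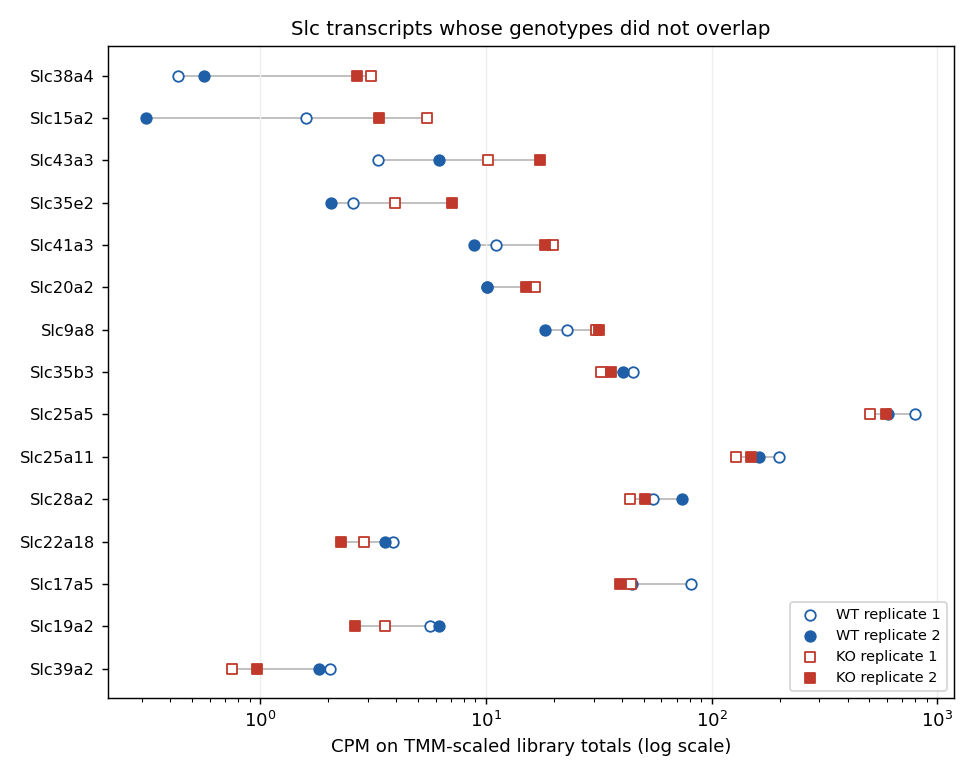
CPM on TMM-scaled library totals (log scale) of the 7 Slc transcripts described as higher and the 8 as lower in KO, whose genotypes did not overlap, with circles for WT, squares for KO, open symbols for replicate 1 and filled ones for replicate 2. Slc38a4 and Slc15a2 show the widest gaps, and those of Slc25a5 and Slc17a5 are narrow.

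Lower in KO were Slc19a2, a thiamine transporter, with WT counts of 92 and 99 and KO counts of 67 and 52, and Slc39a2, a zinc importer, with WT counts of 33 and 29 and KO counts of 14 and 19. The log2 fold changes were -0.93 (SE 0.33, adjusted p = 0.665) and -1.16 (SE 0.42, adjusted p = 0.676) in the edgeR quasi-likelihood test. Slc39a2 was the only gene of the 167 that reached 20 counts in WT libraries alone, and it overlaps Mettl17. Slc17a5, the sialic acid exporter of lysosomes, had WT counts of 1310 and 710 and KO counts of 817 and 775, or 80.8 and 44.6 CPM against 43.8 and 39.4 CPM. Its genotypes were separated by less than 1 CPM, and the difference rested on WT replicate 1: without that library the log2 fold change was -0.10.

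The concentrative nucleoside transporter Slc28a2 had 54.8 and 73.7 CPM in WT and 43.3 and 50.8 CPM in KO, with a log2 fold change of -0.45 (SE 0.26). Slc25a11 had 199 and 162 CPM in WT and 128 and 149.7 CPM in KO, Slc25a5 had 799 and 605 CPM in WT and 503 and 595 CPM in KO, and Slc35b3, a Golgi transporter of the sulfate donor PAPS, had 44.9 and 40.6 CPM in WT and 32.4 and 35.9 CPM in KO. Slc22a18, an imprinted gene counted here among those with another or no assigned substrate, had WT counts of 63 and 57 and KO counts of 54 and 45. None of these 5 had an unadjusted p under 0.05, and their log2 fold changes lay between -0.52 and -0.32. That of Slc25a5 moved to -0.14 when WT replicate 1 was left out and to -0.58 when WT replicate 2 was.

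The other transporters picked for their known roles in macrophages did not pass the test. Slc48a1 had a log2 fold change of 0.19 (SE 0.23), Slc15a4 one of 0.24 (SE 0.21), Slc1a5 one of 0.25 (SE 0.31), Slc16a1 one of 0.37 (SE 0.24) and Slc12a2, the sodium, potassium and chloride cotransporter that regulates cell volume, one of 0.73 (SE 0.32). All of these except Slc1a5 were higher in both KO libraries in CPM. For Slc48a1 the gap was narrow, with 315.4 CPM in WT replicate 2 against 315.5 CPM in KO replicate 1. Slc12a2 had WT counts of 53 and 70 and KO counts of 123 and 120, and Slc16a1 had WT counts of 357 and 417 and KO counts of 516 and 679. Among 20 such genes, 16 were above 0, 6 were higher in both KO libraries, none was lower in both, and 0 had an unadjusted p under 0.05, where all genes tested gave 54.6%, 20%, 16.9% and 6.63%. A list of 59 transporters outside the Slc naming, such as Mpc1, Ucp2, Bsg and Npc1, had 42 tested genes with a median log2 fold change of 0.12, of which 1 had an unadjusted p under 0.05.

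The widest differences among the 167 were not between genotypes but between libraries with a different replicate number. More than 2-fold separated the WT libraries for 24 genes and the KO libraries for 20, while the fitted genotype difference exceeded 2-fold for 9. These shares, 14.4%, 12.0% and 5.39%, were near those of all genes tested, 15.3%, 10.9% and 7.41%, so nothing in them is particular to the transporters. The median absolute log2 difference was 0.33 between the WT libraries, 0.28 between the KO libraries and 0.22 between genotypes, against 0.40, 0.31 and 0.25 over all genes. These values are not like for like, since a library ratio compares single libraries and the fitted genotype difference averages 2 libraries in each genotype. Gene by gene, the gap between numbers was larger than that between genotypes for 93 of the 167 (55.7%) and for 6819 of all genes tested. In 12 of the 167 (7.19%, against 4.36% of all genes tested) the libraries numbered 2 were more than 2-fold above those numbered 1 in both genotypes, and in 3 (1.80%, against 2.42%) they were more than 2-fold below. These 15 genes were chosen by their values and are described without a test.

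Slc2a6, a hexose transporter of the lysosomal membrane, was the most extreme of those with over 100 counts in each library, with WT counts of 126 and 2656 and KO counts of 226 and 3590. Replicate 2 was 21.4-fold above replicate 1 in WT and 15-fold in KO. Slc7a2, the inducible arginine transporter, had WT counts of 156 and 1366 and KO counts of 242 and 2246, ratios of 8.89 and 8.77. The genotypes overlapped in both genes, and their genotype differences could be placed only within 95% confidence intervals of -3.93 to 4.24 for Slc2a6 and -2.84 to 3.67 for Slc7a2 on the log2 scale.

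Of the 22 zinc, copper and magnesium genes, 3 were among the 12, and the mitochondrial carrier Slc25a37 was another. Slc31a2 had WT counts of 1870 and 7390 and KO counts of 1582 and 8314, 4.02-fold and 4.97-fold. The zinc, iron and manganese importer Slc39a14 had WT counts of 95 and 493 and KO counts of 185 and 690. The mitochondrial iron importer Slc25a37 had WT counts of 219 and 1032 and KO counts of 437 and 1175. All 3 were more than 2-fold apart in each genotype. Slc30a6, a zinc transporter of the Golgi, was the least separated, with WT counts of 328 and 659 and KO counts of 314 and 792. In each of the 4 metal transporters, both libraries numbered 2 were above both numbered 1.

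Of the 21 inorganic ion genes, 2 were among the 12, Slc12a4 and Slc4a7. Slc12a4, a potassium and chloride cotransporter, had WT counts of 410 and 1521 and KO counts of 552 and 1662. The bicarbonate cotransporter Slc4a7, which is needed for phagosome acidification, had WT counts of 223 and 1029 and KO counts of 399 and 1438. Slc44a1, a choline transporter, had WT counts of 913 and 3775 and KO counts of 1486 and 4819. Slc16a10, which carries aromatic amino acids, had WT counts of 1103 and 2786 and KO counts of 1400 and 3235. Slc16a10 was the least separated of these 4, and in each of them both libraries numbered 2 were above both numbered 1. Of the low ones, the betaine transporter Slc6a12 had WT counts of 26 and 121 and KO counts of 56 and 183, and the dicarboxylate transporter Slc13a3, nearly undetected in the libraries numbered 1, had WT counts of 2 and 67 and KO counts of 2 and 32.

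Lower in the libraries numbered 2 were Slc46a3, a lysosomal transporter of the folate transporter family, with WT counts of 474 and 162 and KO counts of 570 and 199, and the sulfate transporter Slc26a11, with WT counts of 197 and 77 and KO counts of 225 and 118. Slc45a4, a sugar transporter family gene, followed with WT counts of 209 and 89 and KO counts of 336 and 177. Of the 11 macrophage markers tested, Cd14 and Msr1 were also more than 2-fold higher and Fcgr1 more than 2-fold lower in the libraries numbered 2 of both genotypes, and the other 8, Lyz2 and Cd68 among them, were not. Cd14 had WT counts of 2027 and 10875 and KO counts of 1967 and 10487, and Fcgr1 had WT counts of 903 and 338 and KO counts of 869 and 348. What the numbers stand for was not stated in the labels, and its part in these differences was not tested.

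**Figure D4:**
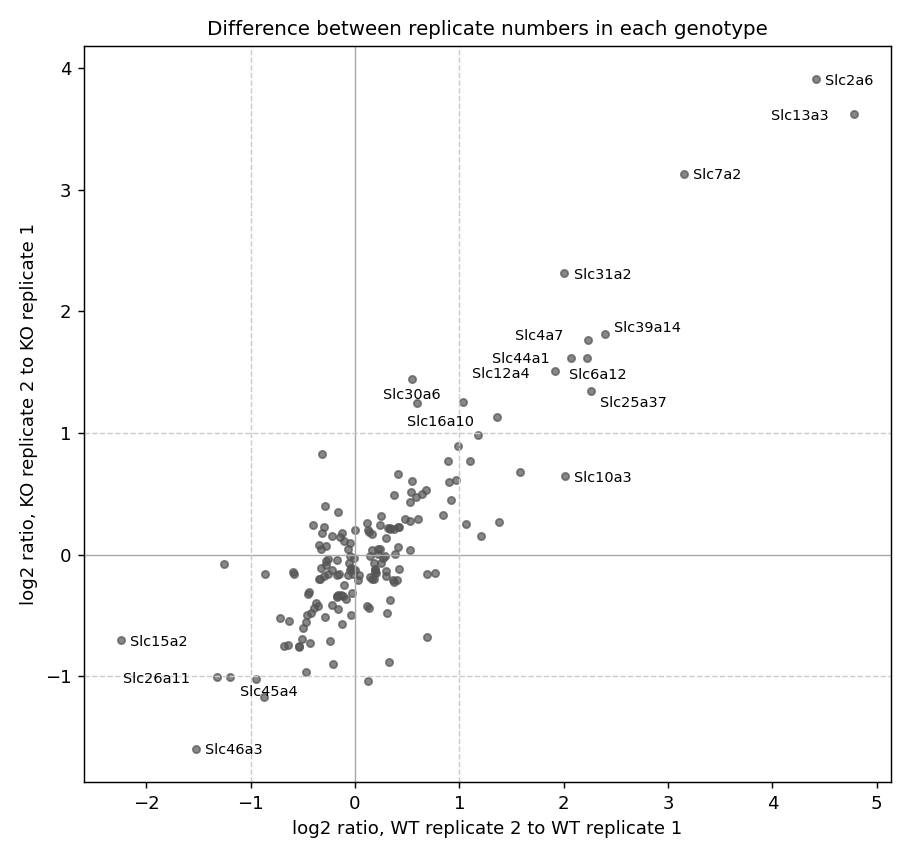
Log2 ratio of replicate 2 to replicate 1 in WT (horizontal) and in KO (vertical) for the 167 Slc genes, with 1 point per gene and dashed lines at a 2-fold difference. The 12 genes in the upper right corner, from Slc30a6 to Slc2a6 and Slc13a3, and the 3 in the lower left differ the same way in both genotypes.

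Promoter sequence of these genes was taken from RefSeq (GRCm38.p6), as the 200 bases before each annotated start, on the strand of the gene. A window was found for 126 of the 167 genes and for 9 of the 12 that were higher in the libraries numbered 2, and 3 motifs were searched on both strands: the NF-kB consensus, AP-1 (TGANTCA) and PU.1 (GAGGAAGT). The 3 windows below are shown because their genes were high in the libraries numbered 2 and because they differ in motifs, with matches in capitals. The window of Slc2a6 (chr2:27027999-27028198, minus strand) held none, that of Slc12a4 (chr8:105966116-105966315, minus strand) held a PU.1 match, and the most upstream of 5 windows of Slc6a12 (chr6:121342374-121342573, plus strand) held an NF-kB match and, nearer the start, an AP-1 match.
Slc2a6: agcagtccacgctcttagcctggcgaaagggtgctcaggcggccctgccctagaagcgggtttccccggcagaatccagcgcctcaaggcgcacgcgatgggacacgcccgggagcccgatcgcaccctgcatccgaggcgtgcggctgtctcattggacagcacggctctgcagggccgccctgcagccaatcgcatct
Slc12a4: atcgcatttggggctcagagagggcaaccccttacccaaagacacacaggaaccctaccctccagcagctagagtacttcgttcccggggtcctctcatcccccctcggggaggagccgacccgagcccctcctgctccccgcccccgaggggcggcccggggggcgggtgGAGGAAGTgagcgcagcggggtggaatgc
Slc6a12: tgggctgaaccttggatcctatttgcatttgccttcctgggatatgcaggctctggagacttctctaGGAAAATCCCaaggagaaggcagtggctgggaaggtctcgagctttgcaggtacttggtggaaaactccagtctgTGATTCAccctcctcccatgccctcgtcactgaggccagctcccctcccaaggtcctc

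An NF-kB match was found in 1 of the 9 genes, in 12 of the 126 (9.52%) and in 6.92% of the 27025 genes with a window. An AP-1 match was found in 1 of the 9, in 8 of the 126 (6.35%) and in 6.36% of all, and a PU.1 match in 1 of the 9, in 3 of the 126 (2.38%) and in 2.39% of all. The genes that were high in the libraries numbered 2 therefore held each motif in a single window, which is too few to compare with the other genes. A match is a run of letters and not a measured binding site, and a window without one says nothing of the factor.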

How the data were processed

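Total RNA of 4 macrophage libraries, WT and KO with 2 each, was used. The authors filtered reads with Seqtk, aligned them with HISAT2 (2.0.4) and counted with StringTie (1.3.3b), and they deposited raw counts per gene for 34745 genes. Beside each count the authors deposited FPKM, scaled by library total and gene length. The labels name mm39, but 124 of the 167 genes have the same start and end as in GENCODE M21, so positions are those of GRCm38. Use of strand in counting is not given in the sources used here.

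Counts were tested in R 4.3.3 with edgeR 4.0.16 (filterByExpr with minimum count 10 and minimum total 15, TMM, glmQLFit and glmQLFTest, two-sided, genotype as the only term), and p-values were Benjamini-Hochberg adjusted over 12418 genes. TMM factors were 0.942 to 1.12. A count of 0 allows up to 0.152 to 0.188 CPM (3 counts, counting error only, since reads carried no molecular identifiers). No library was a copy of another: between every pair, chi-square over its degrees of freedom was 22.8 to 125. Ratios of 2 libraries were taken after adding 0.5 counts to each.

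The genes, substrate classes and lists were chosen with earlier results of these data known. Genes named were the 2 most abundant of each class, any called, up to 8 in each direction with the lowest p and no overlap, and a list of 20 picked by function. The 12 and 3 genes that differ by replicate number, and Slc25a3, were named after their values were seen. The values of 1 gene that the rule names are not reported here. Alternatives used DESeq2 1.42.0 and limma 3.58.1. On simulated data with 200 genes changed 4-fold, the test recovered 195 of 200, and 0 with the measured difference between replicate numbers added, where a fit with a term for the number recovered 196 with 1 false call.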

Additional observations from a re-analysis of the deposited data

How the results depend on the processing

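The replicate numbers were shared between genotypes, but nothing in the labels says that a number marks a shared animal or batch. Deviations of same-numbered libraries from their group means had a correlation of 0.727 across genes. The common coefficient of variation between libraries in the fit fell from 0.343 to 0.169 with a replicate block. With only 2 pairs and no word in the labels, the numbers were not taken as pairs in the main test. Its SEs and p-values therefore include the difference between numbers. With a replicate block, 664 genes were called (494 higher, 170 lower in KO) in place of 0, among them 6 of the 167 transporters, all higher, and Slc35e2, Slc15a2, Slc10a3, Slc43a3 and Slc38a4 were among them. That is 3.59% of the transporters against 5.35% of all genes tested. With the replicate block and the gene length correction together, 319 genes (2.57%) and 4 transporters (2.40%) were called. The edgeR exact test called 174 genes and the DESeq2 Wald test 166, with the same 2 transporters. Leaving out a library gave 0 to 1 genes called and 0 transporters called, with a median of the transporters between 0.10 and 0.20. DESeq2 size factors, the filters on low counts, limma on log2(FPKM + 1) with a pseudocount of 1, and the gene length correction alone gave 0 calls. The count of transporters lower in both KO libraries moved from 15 to 28 with the gene length correction. The length correction, its form with a block and the other scalings of that count, and the class of Slc16a10, were chosen after seeing the data.

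Of 50 named transporters, 25 kept the sign of the log2 fold change under every alternative, 11 turned only when a library was left out, and 14 turned under other settings as well. The cause was not tested, and none of the 25 transporters that turned was called under any setting. With DESeq2 size factors Slc6a8 turned to -0.011, Slc38a9 to -0.0023 and Slc30a1 to -0.024, and the DESeq2 Wald test gave -0.012, -0.0027 and -0.024. Without a filter on low counts Slc30a1 was at -0.0025. With the gene length correction, Slc6a8 was at -0.20, Slc38a9 at -0.17, Slc35f6 at -0.20, Slc20a1 at -0.13, Slc30a1 at -0.12 and Slc39a8 at -0.20, and with the block added they were at -0.20, -0.16, -0.20, -0.15, -0.11 and -0.17. With the replicate block alone Slc16a10 turned to 0.026, Slc12a4 to 0.021 and Slc37a2 to 0.095. With limma, Slc16a10 was at 0.17, Slc25a4 at 0.030, Slc35b2 at 0.041, Slc18a1 at 0.078, Slc35f5 at 0.13, Slc12a4 at 0.15, Slc37a2 at 0.24 and Slc31a1 at 0.085.

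Leaving out each library in turn gave these ranges of the log2 fold change where the sign turned: Slc15a3 -0.46 to 0.14, Slc6a6 -0.017 to 0.54, Slc6a8 -0.21 to 0.23, Slc7a8 -0.48 to 1.07, Slc1a5 -0.014 to 0.54, Slc38a9 -0.19 to 0.25, Slc7a2 -1.88 to 2.69, Slc16a10 -0.70 to 0.78, Slc27a1 -0.10 to 0.22, Slc25a4 -0.31 to 0.040, Slc29a3 -0.22 to 0.74, Slc35b2 -0.28 to 0.029, Slc18a1 -0.26 to 0.22, Slc35f5 -0.22 to 0.16, Slc35f6 -0.037 to 0.12, Slc12a4 -1.03 to 1.14, Slc8b1 -0.22 to 0.55, Slc20a1 -0.20 to 0.30, Slc37a2 -0.57 to 0.73, Slc2a6 -2.85 to 3.61, Slc39a1 -0.24 to 0.41, Slc31a2 -1.78 to 1.10, Slc31a1 -0.68 to 0.58, Slc30a1 -0.14 to 0.15 and Slc39a8 -0.14 to 0.34. The widest ranges belong to transporters that differ by replicate number, since leaving out a library leaves the genotypes with different numbers.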
